A study of Mus musculus with 24 samples.

Results

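The subject of this report is the immunoglobulin gene segments of the mouse: the variable (V), joining (J) and constant (C) genes of the antibody heavy chain and of the kappa and lambda light chains. A gene was a member if the annotation in the authors' comparison tables gave it an immunoglobulin gene type that was not a pseudogene, and if its counts over the 24 libraries summed to at least 20. Of 37606 genes in the count table, 183 met the rule, with 161 V, 11 C and 11 J genes and no diversity (D) gene. Heavy-chain members numbered 93 on chromosome 12, kappa members 82 on chromosome 6 and lambda members 8 on chromosome 16. Together they held 877121 counts.

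The libraries were made from aortic homogenates of wild-type (WT) mice given a subcutaneous minipump with angiotensin II (Ang II), a peptide hormone that raises blood pressure, or with vehicle (sham). The infusion lasted 2 weeks and aortas were taken 2, 4 or 6 months later, with 4 Ang II and 4 sham libraries at each time, all of the same genotype. The series is titled as a study of the receptor Axl in hypertensive remodelling of the aorta, and no library used here is labelled with an Axl genotype. Whether the 4 libraries of a group came from 4 mice is not stated in the labels, so every p-value measures the spread between these libraries, which may in part be technical.

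Total counts in genes ran from 19.16 to 58.68 per library, in units of 1e6 counts. Counts from chromosome M made up 31.75% to 59.31% of each library at 6 months, against at most 16.32% at the earlier times. Time and any technical difference of the 6-month libraries therefore cannot be told apart. Smooth muscle genes were found in every library, with Acta2 at 113 CPM or more and Myh11 at 58.5 CPM or more (CPM, counts per 1e6 library counts, with library sizes scaled by TMM over all 24 libraries). Markers of airway lining cells, a tissue next to the thoracic aorta, summed to between 5.63 and 8297 CPM.

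An antibody gene is assembled in each B cell. A V, a D (heavy chain only) and a J segment are joined in the DNA, and the joined exon is spliced to a C gene, so V counts report which antibodies are made and C counts report their class. A B cell first makes IgM (Ighm) and IgD (Ighd) from the same transcript, and may later switch its heavy chain to IgG (Ighg1, Ighg2b, Ighg2c, Ighg3) or IgA (Igha). Plasma cells transcribe these genes far more than resting B cells do. In mouse, most light chains are kappa. Artery walls hold few B cells, and most of those near an aorta lie in the adventitia, the surrounding fat and small lymphoid clusters.

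Segments of a V family are near-copies of each other, which bears on what a count can mean. The median identity of a heavy V member to its closest other member was 94.5% over the coding bases, and it was 93.8% for kappa. Ighv1-52, the only member called by edgeR with its count filter in the comparisons below, and its closest relative Ighv1-61 are shown for that reason. They lie on the minus strand at chr12:115145487-115145919 and chr12:115359140-115359572 (mm10) and agree at 98.6% of 351 coding bases. The first 240 coding bases are printed, 5′ to 3′, and capitals mark the 5 bases that differ, all of which fall in this stretch. Values of such pairs are uncertain, since the counting could split reads between them.
Ighv1-52: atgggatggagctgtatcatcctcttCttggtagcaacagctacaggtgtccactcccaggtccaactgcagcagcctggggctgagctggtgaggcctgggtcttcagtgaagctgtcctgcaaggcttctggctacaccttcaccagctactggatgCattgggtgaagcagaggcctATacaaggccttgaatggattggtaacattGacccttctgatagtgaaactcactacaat
Ighv1-61: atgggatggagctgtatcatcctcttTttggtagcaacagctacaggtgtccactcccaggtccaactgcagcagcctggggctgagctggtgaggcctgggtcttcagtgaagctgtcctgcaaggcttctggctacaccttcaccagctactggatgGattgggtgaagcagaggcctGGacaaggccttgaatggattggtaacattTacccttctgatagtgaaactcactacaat

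The other 4 sequences carry the pattern among V segments described near the end. In mice, Ighv11-2 joined to the light-chain segment Igkv14-126, and Ighv12-3 joined to Igkv4-91, are the known pairs of B-1a cell antibodies that bind the membrane lipid phosphatidylcholine. Ighv11-2 lies at chr12:114048241-114048812 and Ighv12-3 at chr12:114366521-114366954, both on the minus strand. Igkv14-126 lies at chr6:67896172-67896642 on the plus strand and Igkv4-91 at chr6:68768555-68769103 on the minus strand. Capitals start at the codon of the conserved cysteine near the end of the V segment. The bases after that codon can enter the antigen-binding CDR3 loop. The cysteine codon was located by the motif TANTNCTGN on the coding strand within the last 60 bases, which 149 of 161 V members (92.5%) hold. The heavy V pair agrees at 58% of aligned bases and the kappa V pair at 62.4%, so these counts are not near-copies of each other. The last 120 coding bases of each segment are printed, 5′ to 3′, from GENCODE M21 transcripts.
Ighv11-2: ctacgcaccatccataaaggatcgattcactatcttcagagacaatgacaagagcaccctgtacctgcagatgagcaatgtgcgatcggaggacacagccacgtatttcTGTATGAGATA
Igkv14-126: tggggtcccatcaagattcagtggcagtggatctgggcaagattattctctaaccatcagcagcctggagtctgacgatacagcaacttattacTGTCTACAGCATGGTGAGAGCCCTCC
Ighv12-3: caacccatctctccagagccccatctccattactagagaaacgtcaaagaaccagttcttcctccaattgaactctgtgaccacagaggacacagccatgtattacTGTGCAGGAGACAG
Igkv4-91: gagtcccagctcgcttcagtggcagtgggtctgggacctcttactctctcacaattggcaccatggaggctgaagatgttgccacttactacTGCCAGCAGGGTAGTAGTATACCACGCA

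Immunoglobulin transcripts were present in all 24 libraries at levels that differed widely within every group. At 2 months the summed members gave 1044, 2827, 1853 and 547 CPM in the 4 Ang II libraries, against 199, 1197, 185 and 685 CPM in the sham libraries. The groups overlapped: Ang II replicate 4 lay below sham replicates 2 and 4. On the log2 scale the summed level averaged 10.4 ± 1.03 in Ang II and 8.7 ± 1.33 in sham libraries (SD, n = 4 each), a difference of 1.66. At 4 months the sums were 771, 890, 2168 and 1336 CPM in Ang II, against 2764, 494, 804 and 1086 CPM in sham libraries, and the difference in log2 means was 0.18. At 6 months they were 873, 921, 883 and 1542 CPM in Ang II, against 893, 2973, 799 and 662 CPM in sham libraries, with a difference of -0.09. Sham libraries thus held the highest sums of the later times, replicate 1 at 4 months and replicate 2 at 6 months. Ang II replicate 4 at 6 months held 20929 immunoglobulin counts, the fewest of its group, in a total of 37.64 (units of 1e6). Replicate 1 held 29932 in 40.96, so the high CPM values of replicate 4 rest on the TMM scaling. Since these are bulk tissues, fewer cells of a type and less RNA per cell cannot be told apart.

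**Figure D1:**
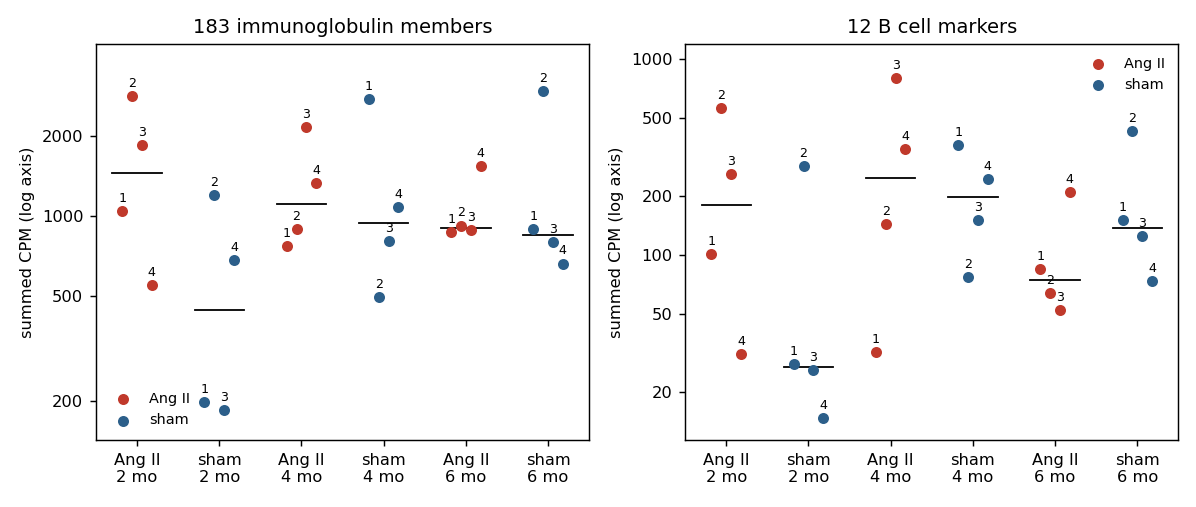
Summed level of the 183 immunoglobulin members (left) and of 12 B cell markers (right) in each library, in CPM on log axes, by treatment and months after infusion. Points are libraries with their replicate number and bars are group medians; Ang II libraries at 2 months ran from 547 to 2827 CPM and sham libraries from 185 to 1197 CPM, with overlap.

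The summed immunoglobulin level was set against other cell markers. This was done within the 16 libraries of 2 and 4 months and, separately, within the 8 of 6 months. There were 14 relations in all, with p-values adjusted by Benjamini-Hochberg over the 14. Each set pooled its treatment and time groups, so differences between groups enter these relations along with variation within groups. Among the earlier libraries it rose with the B cell markers (Cd79a, Ms4a1 and others), with Pearson's r = 0.83 (permutation p = 8e-05, adjusted 0.000373) and Spearman's rho = 0.93 (permutation p = 2e-05, adjusted 0.00028). Without the 2 libraries farthest from the median of the B cell sum, r was 0.87. The plasma cell markers gave r = 0.86 (permutation p = 5e-05, adjusted 0.00035) and rho = 0.79 (permutation p = 0.00042, adjusted 0.00196), and r = 0.83 without the 2 farthest libraries. T cell markers gave r = 0.75 (permutation p = 0.00076, adjusted 0.00266) and rho = 0.79 (permutation p = 0.0006, adjusted 0.0021), with the same r of 0.75 when 2 libraries were dropped. Airway markers gave r = 0.01 (permutation p = 0.961, adjusted 0.961) and rho = -0.05 (permutation p = 0.864, adjusted 0.864), and r = 0.26 without the 2 farthest libraries.

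Macrophage markers gave r = 0.47 (permutation p = 0.0632, adjusted 0.0885) and rho = 0.52 (permutation p = 0.0425, adjusted 0.0993) in the earlier libraries, and r = 0.48 without 2. Smooth muscle markers gave r = -0.53 (permutation p = 0.0339, adjusted 0.0553) and rho = -0.46 (permutation p = 0.0719, adjusted 0.144), and r = -0.39 without 2. All 4 sham libraries of 2 months held 2379 CPM or more of these markers, against at most 1858 CPM in the other earlier libraries. At 6 months the relation to B cell markers had r = 0.85 (exact permutation p = 0.01, adjusted 0.0281) but rho = 0.52 (exact permutation p = 0.197, adjusted 0.344). It fell to r = 0.01 without the 2 farthest libraries, so it rested on them. The other 6-month relations to marker lists had adjusted exact permutation p-values of 0.0553 or more.

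At 2 months B cell markers summed to between 31.1 and 564 CPM in Ang II libraries, against 14.7 to 284 CPM in sham libraries, and T cell markers to between 9.93 and 78.2 CPM, against 4.51 to 101 CPM. Cd79a, a signalling chain of the B cell receptor, stood at 19.8, 81.5, 45.5 and 6.37 CPM in Ang II libraries, against 4.5, 48.9, 4.29 and 2.29 CPM in sham libraries. The groups overlapped, since sham replicate 2 lay above 3 of the 4 Ang II libraries. All 12 B cell markers were tested and none passed in edgeR at any time. Of 12 plasma cell markers, Irf4, a factor of plasma cell and myeloid cells, rose at 2 months by 2.33 on the log2 scale (SE 0.437, edgeR adjusted p = 0.0346). Jchain, which links IgM and IgA into polymers, differed by 1.59 (SE 0.592, edgeR adjusted p = 0.35), Mzb1 by 1.42, Xbp1 by 0.18, Sdc1 by -0.53 and Prdm1 by -0.64, none of them past the threshold. Pigr, the epithelial transporter of IgA and IgM, differed by -1.48 at 2 months (edgeR adjusted p = 0.863).

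The smooth muscle markers moved at the same time, and 5 of 5 fell at 2 months, summing to between 442 and 1209 CPM in Ang II libraries and between 2379 and 4881 CPM in sham libraries. Macrophage markers summed to between 105 and 149 CPM in Ang II, against 67.3 to 98.6 CPM in sham libraries at 2 months, where 2 of 4 rose; 1 of 4 rose at 4 months. Markers of lymph node stroma and vessels summed to between 1.73 and 44.2 CPM in Ang II and 0.369 to 23.7 CPM in sham libraries at 2 months. The part of these shifts in the immunoglobulin levels was not tested. In edgeR no gene passed at any time in the lists for endothelium, brown fat, thymocytes, airway, lymph node stroma, T cells, B cell niche factors, recombination and class switch, or immunoglobulin receptors.

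Gene by gene at 2 months, Ang II libraries had the higher fitted level for nearly every immunoglobulin gene, but the spread between libraries left 1 call. edgeR tested 81 members, those that passed its count filter, and called 1, where 1.81% of 16421 genes were called and 0.371% were called higher. Of these 81, 80 had a positive log2 fold change with a median of 1.84, against 51.7% positive and a median of 0.01 over all genes tested. Unadjusted p-values under 0.05 were found for 30 of the 81, all higher, against 4.18% of all genes with such a p and higher (10.8% in either direction). At each time a low-count member could pass the filter through the group where it was high. With no count filter all 183 members entered, of which 175 were positive with a median of 2.15. Members share cells and libraries and are not replicates, so this is a description. Without Ang II replicate 2, the library with the highest sum, 75 of 81 were positive and the median was 1.24.

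Ighv1-52, a V segment of the large Ighv1 family, had 25, 43, 15 and 19 counts in the Ang II libraries at 2 months, against 0, 1, 0 and 2 counts in the sham libraries. In CPM these are 0.757, 0.869, 0.646 and 0.669, against at most 0.0819 in sham libraries. Every Ang II library lay above every sham library. The log2 fold change was 4.57 (SE 0.661, edgeR adjusted p = 0.0136). The 102 Ang II counts and 3 sham counts gave a ratio of summed CPM of 27.9, with an exact 95% interval of 9.26 to 137 that covers counting error only. Its near-copy Ighv1-61 had 0, 33, 3 and 1 counts in Ang II, against 0, 4, 0 and 0 in sham libraries. The call was lost when Ang II replicate 3 (edgeR adjusted p = 0.0523), Ang II replicate 4 (0.0534) or sham replicate 1 (0.0547) was left out.

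The order of groups in Ighv1-52 did not hold over time. At 4 months it stood at 0, 0.478, 0.542 and 1.17 CPM in Ang II, against 0.232, 0.28, 0.42 and 0.0337 CPM in sham libraries. At 6 months it stood at 0.467, 0.246, 0.435 and 0.811 CPM in Ang II, against 2.02, 2.05, 0.779 and 0.76 CPM in sham libraries, with a log2 fold change of -1.57 (SE 0.491, edgeR adjusted p = 0.922). Ang II replicate 4 alone overlapped the sham group. The interaction of treatment and time passed for Ighv1-52 (edgeR adjusted p = 0.0453), the only call among 147 members, where 0.536% of 19218 genes were called. DESeq2 called 7 members in the interaction, Ighv1-52 among them (adjusted p = 0.000393), where it called 2.83% of all genes.

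**Figure D2:**
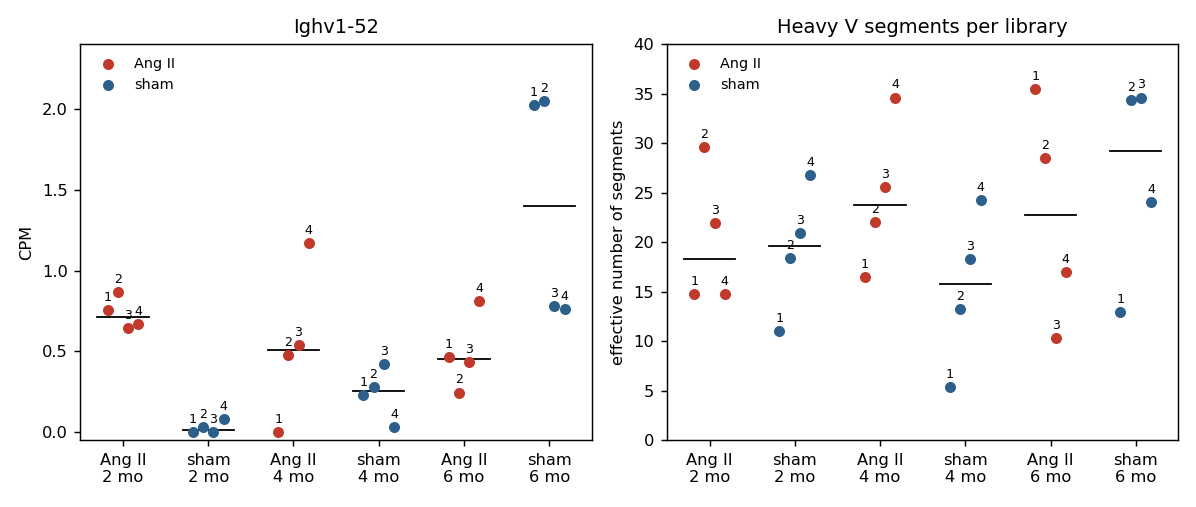
Left, Ighv1-52 level in CPM, and right, the effective number of heavy V segments (the inverse of the summed squared shares), in each library by treatment and time, with replicate numbers and group medians as bars. The 4 Ang II libraries at 2 months lie between 0.646 and 0.869 CPM, above all 4 sham libraries, and at 6 months 3 of the 4 Ang II libraries lie below all 4 sham libraries; effective numbers overlap at every time.

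Another 6 members had all Ang II libraries above all sham libraries at 2 months, which with Ighv1-52 makes 7 of 81 against 2.44% of all genes tested. They were Igha, Ighv6-3, Igkv12-89, Igkv3-12, Igkv4-59 and Igkv4-63, and no member had the opposite separation (5.49% of all genes did). Ighv1-52, with 102 Ang II and 3 sham counts, passed the count filter through the Ang II libraries. Igkv4-63, Ighv6-3, Igkv12-89 and Igkv3-12 had at most 10, 18, 15 and 14 counts in any sham library. The filter could have passed them in the same way. The shares are therefore a description and not a rate to be tested. The kappa segment Igkv4-63 had 66, 113, 229 and 23 counts in Ang II, against 10, 5, 1 and 1 counts in sham libraries, with a log2 fold change of 4.59 (SE 0.975, edgeR adjusted p = 0.0604). At 4 months the same segment differed by -4.00 (SE 1.6, edgeR adjusted p = 0.28), with 523 counts in sham replicate 1 and at most 54 in any other library of that time. The authors' deposited table lists 139 members at 2 months. Of these, 21 pass an adjusted p under 0.05 in the authors' deposited table, all higher in Ang II, where 1.09% of its 18740 genes are higher. DESeq2 run here called 12 of the 81 members (4.43% of all genes tested in either direction). In limma voom with quality weights 6 members were called, and its count over all genes stands in the closing section.

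The constant genes give the antibody classes. All 11 were tested at 2 months, all had positive log2 fold changes between 0.83 and 3.16, and none passed in edgeR. Ighm, the IgM heavy chain and the most abundant member with 42.1% of all member counts, stood at 462, 1177, 788 and 249 CPM in Ang II, against 107, 557, 97.2 and 371 CPM in sham libraries. The groups overlapped, and the log2 fold change was 1.26 (SE 0.668, edgeR adjusted p = 0.589). Igkc, the kappa constant gene, stood at 235, 715, 532 and 138 CPM in Ang II, against 43.8, 343, 43.7 and 154 CPM in sham libraries, a log2 fold change of 1.49 (SE 0.768, edgeR adjusted p = 0.568). Ang II replicate 4 was again below sham replicates 2 and 4.

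Igha, the IgA heavy chain, was the constant gene with the clearest separation. It stood at 37.3, 18.2, 33.8 and 41.3 CPM in Ang II, against 5.14, 10.7, 5.76 and 15.5 CPM in sham libraries at 2 months, so the groups did not overlap. The log2 fold change was 1.83 (SE 0.391, edgeR adjusted p = 0.0625). DESeq2 gave an adjusted p of 0.000119 for the same libraries, limma voom with quality weights 0.00425, and edgeR without the count filter 0.0367. Ang II replicate 4 had the highest Igha of the group together with its lowest B cell sum, 31.1 CPM.

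Ighg3, the IgG3 heavy chain, stood at 18.7, 38.9, 30.9 and 7.68 CPM in Ang II, against 0.143, 10.4, 0.279 and 0.287 CPM in sham libraries. Sham replicate 2 alone overlapped the Ang II group. The log2 fold change was 3.11 (SE 1.24, edgeR adjusted p = 0.394), and without sham replicate 2 it was 6.69 (edgeR adjusted p = 0.0165). Ighg2c stood at 3.24, 154, 52.7 and 6.2 CPM in Ang II, against 2.18, 13.3, 2.79 and 6.39 CPM in sham libraries, a difference of 3.16 (SE 1.19, edgeR adjusted p = 0.356), which was 1.75 without Ang II replicate 2. Ighg2b stood at 57.4, 117, 56.3 and 9.15 CPM in Ang II, against 1.07, 44, 1.05 and 21.7 CPM in sham libraries, a difference of 1.84 (SE 1.16, edgeR adjusted p = 0.688), which was 2.96 without sham replicate 2. Coding bases of these IgG2 genes agree at 87.6%.

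Ighg1 came mostly from single libraries: 0.363, 40.9, 6.11 and 1.37 CPM in Ang II, against 0, 15.8, 0.314 and 0.328 CPM in sham libraries. Its log2 fold change of 1.60 (SE 1.75, edgeR adjusted p = 0.868) became -0.67 without Ang II replicate 2. Ighd, which marks mature unswitched B cells, stood at 18.3, 86.3, 39 and 3.59 CPM in Ang II, against 4.43, 46.5, 2.79 and 2.09 CPM in sham libraries, a difference of 1.42 (SE 1.16, edgeR adjusted p = 0.792). Without Ang II replicate 2 it was 0.53, and without sham replicate 2 it was 3.61. The lambda constant genes Iglc1, Iglc2 and Iglc3 differed by 1.34, 0.83 and 0.92 (edgeR adjusted p = 0.619, 0.833 and 0.78). With a library left out they ran from 0.99 to 1.81, from 0.36 to 1.66 and from 0.56 to 1.63, and for Iglc2 and Iglc3 the lowest was without Ang II replicate 2 and the highest without sham replicate 2. Iglc2 and Iglc3 agree at 96.2% of aligned bases, so their split is uncertain.

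**Figure D3:**
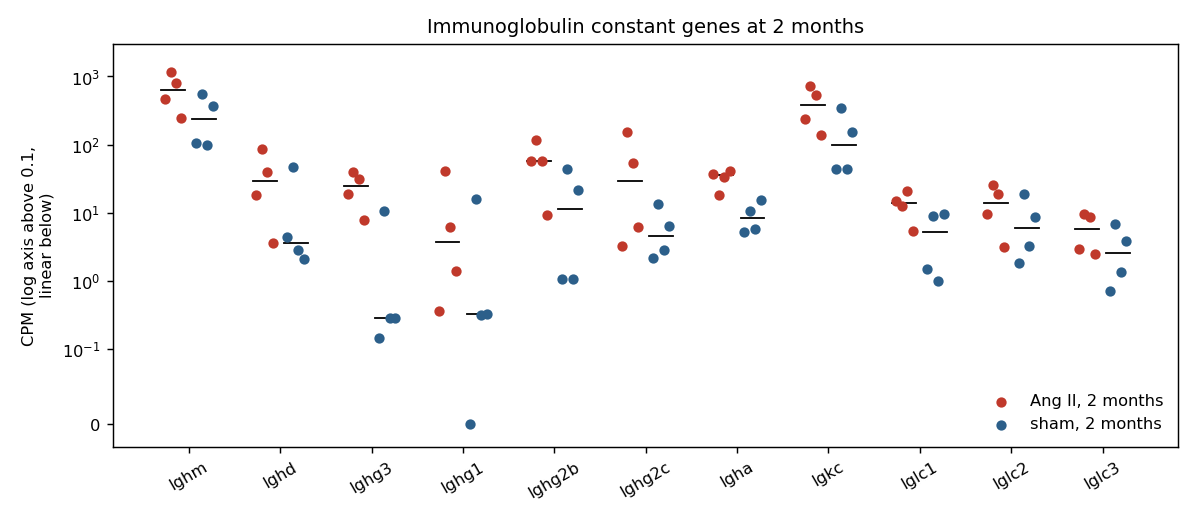
Level of the 11 constant genes in the 4 Ang II and 4 sham libraries at 2 months, in CPM on an axis that is logarithmic above 0.1 and linear below. Points are libraries and bars are medians; Igha is the only constant gene with no overlap, at 18.2 CPM or more in Ang II and 15.5 CPM or less in sham libraries.

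At 4 months no member passed in edgeR among 96 tested, where 0.707% of 16127 genes were called. DESeq2 and limma voom also called 0, and 7 of the 96 had an unadjusted p under 0.05, against 15.5% of all genes. No member was fully separated, while 3.06% of all genes lay above and 7.6% below in every Ang II library. The members' median log2 fold change was 0.48, against 0.04 over all genes tested. Ighm stood at 353, 376, 696 and 535 CPM in Ang II, against 1268, 243, 364 and 510 CPM in sham libraries, a difference of -0.26 (SE 0.476, edgeR adjusted p = 0.803). Without sham replicate 1 that difference was 0.41. Igkc differed by 0.04 (SE 0.576, edgeR adjusted p = 0.977), and 5 of 8 left-out libraries turned its sign. Igha stood at 73, 22.2, 23.3 and 20.8 CPM in Ang II, against 57.3, 10.8, 9.42 and 9.19 CPM in sham libraries, a difference of 0.72 (SE 0.708, edgeR adjusted p = 0.638). Replicate 1 was high in both groups. The difference was 0.05 without the Ang II and 1.85 without the sham library of that number. The authors' deposited table calls 0 of 138 members listed at 4 months, where it calls 5.6% of its genes.

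At 6 months no member passed in edgeR among 137 tested, and 0% of 19343 genes were called. Unadjusted p-values under 0.05 were found for 16 of the 137 members, only 4 of them higher in Ang II, against 5.05% of all genes. Of the 137, 55 had a positive and 82 a negative log2 fold change. Their median was -0.26, against -0.03 over all genes tested. In limma voom 0 members were called, while DESeq2 called 1, where it called 0.326% of all genes. That member was the kappa segment Igkv3-10, with 3, 5, 4 and 4 counts in Ang II, against 49, 467, 88 and 19 counts in sham libraries. Every Ang II library was below every sham library. The log2 fold change was -4.85 (SE 1.04, edgeR adjusted p = 0.922), and DESeq2 gave -4.81 (adjusted p = 0.000118). The authors' deposited table also lists Igkv3-10 as its single member below 0.05, with a log2 fold change of -4.82, where 0.0483% of its 22783 genes are lower. Igkv3-10 was the only member fully separated at 6 months, where 1.73% of all genes lay lower and 1.27% higher in every Ang II library. At 2 months the same segment had 25, 389, 25 and 6 counts in Ang II, against 0, 9, 0 and 16 in sham libraries. There 3 of 4 Ang II libraries lay above all 4 sham libraries, with a log2 fold change of 3.41 (SE 1.42, edgeR adjusted p = 0.422).

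Among the constant genes at 6 months, Igha stood at 40.5, 19.9, 4.91 and 24.5 CPM in Ang II, against 8.91, 14.4, 4.43 and 2.93 CPM in sham libraries, a difference of 1.55 (SE 0.656, edgeR adjusted p = 0.945). Only Ang II replicate 3 overlapped the sham group. Ighm differed by -0.44 (SE 0.478, edgeR adjusted p = 1) and Igkc by -0.26 (SE 0.543, edgeR adjusted p = 1). Both turned positive without sham replicate 2, at 0.25 and 0.51.

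Over all 24 libraries the average Ang II effect passed for 0 of 133 members in edgeR, where 0.00545% of genes, a single gene, were called. Of the 133, 19 had an unadjusted p under 0.05, all higher, where 7.03% of all genes had such a p in either direction. DESeq2 called 3 (0.333% of all genes): Igha at 1.37 (DESeq2 adjusted p = 0.0484), Ighv3-6 at 1.67 (0.0449) and Igkv9-124 at 2.20 (0.039). In edgeR Igha averaged 1.35 (SE 0.39, edgeR adjusted p = 0.355) and Ighg3 1.86 (SE 0.648, edgeR adjusted p = 0.451). For these genes the difference between times did not pass (edgeR adjusted p = 0.782 for Igha and 0.748 for Ighg3), which does not show that it was the same at each time. Between 4 and 2 months, with treatment in the model, edgeR called 0 of 101 members (0.771% of 16595 genes were called), and 4 had an unadjusted p under 0.05, a smaller share than the 17.4% of all genes. DESeq2 called 2, Igkv1-110 at 1.59 and Igkv8-19 at 2.75, where it called 5.06% of all genes.

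Shares of classes do not depend on how libraries are scaled. The class-switched share of heavy constant counts (IgG and IgA together) was 19.6%, 22.6%, 17.9% and 20.7% in Ang II at 2 months, against 7.12%, 13.5%, 9.26% and 10.6% in sham libraries. The groups did not overlap, with means of 20.2% ± 2 in Ang II and 10.1% ± 2.67 in sham libraries (SD, n = 4 each). At 4 months it was 18.4%, 19.3%, 32.9% and 22% in Ang II, against 16.2%, 11.4%, 17% and 15% in sham libraries, again without overlap. At 6 months it was 36.2%, 13.5%, 7.06% and 14.1% in Ang II, against 4.34%, 20.3%, 12.4% and 6.33% in sham libraries, with overlap. The share was computed after the values were seen and carries no test.

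Which class made up the switched share varied from library to library. At 4 months Ang II replicate 1 had 16.7% of its heavy constant counts in Igha and 1.7% in IgG genes, while Ang II replicate 3 had 1.92% in Igha and 30.9% in IgG genes. With Igha left out, the switched share overlapped at both times, at 8.82% to 21.7% in Ang II and 2.96% to 12.2% in sham libraries at 2 months, and at 2.04% to 31.5% against 8% to 15.3% at 4 months. Counted per kilobase of exon, it still did not overlap at 2 months (15.2% to 22.8% in Ang II, 6.39% to 11.3% in sham libraries) but did at 4 months (14.2% to 32.5%, against 10% to 15.9%). Ighm was 57.4% to 92.8% of heavy constant counts over the 24 libraries, the largest class in each.

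The ratio of Ighm to Ighd, counted per kilobase of exon, ran from 5.91 in Ang II replicate 3 at 4 months to 179 in sham replicate 4 at 2 months. It was lower where B cell markers were higher. On log2 scales its r with the B cell sum was -0.84 in the 16 earlier libraries (permutation p = 1e-05, the smallest they can give, adjusted 0.00014), and rho was -0.83 (permutation p = 0.00015, adjusted 0.00105). Without the 2 farthest libraries r was -0.80. At 6 months r was -0.78 (exact permutation p = 0.0201, adjusted 0.0468) and rho was -0.86 (exact permutation p = 0.0107, adjusted 0.03), with r = -0.88 without 2. An example is Ang II replicate 1 at 4 months, with 771 CPM of immunoglobulin, 32.1 CPM of B cell markers and a ratio of 119.

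Heavy genes were the larger part of the counts in every library and lambda genes the smallest. Heavy genes took 55.4% to 64.4% of the members' counts, kappa 31.3% to 40.7% and lambda 2.28% to 6.31%. At 2 months heavy shares averaged 60.9% ± 2.31 in Ang II and 62.7% ± 1.78 in sham libraries (SD, n = 4 each, here and below). They averaged 60% ± 0.483 in Ang II and 62% ± 1.06 in sham libraries of 4 months, and 58.5% ± 3.27 in Ang II and 60.8% ± 2.59 in sham libraries of 6 months. At 4 months every Ang II library (59.5% to 60.5%) was below every sham library (60.6% to 63%), a difference in means of -1.92 percentage points. Lambda's share of light-chain counts ran from 6.05% to 16.5%, with averages of 8.14% ± 1.91 in Ang II and 10.2% ± 3.06 in sham libraries of 2 months. The averages were 11.8% ± 1.94 in Ang II and 10.8% ± 4.02 in sham libraries of 4 months, and 9.87% ± 2.06 in Ang II and 8.96% ± 2.31 in sham libraries of 6 months. The lambda differences of -2.04, 1.03 and 0.91 percentage points were each smaller than the pooled SD of the libraries (2.55, 3.16 and 2.18).

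Constant genes held 80.1% of the members' counts, and Ighm and Igkc alone 65.4%. The constant share was 82.2% to 89.8% in the libraries of 2 and 4 months and 65.1% to 72.7% at 6 months, with no overlap between these sets. It averaged 84.5% ± 1.54 in Ang II and 86.7% ± 2.25 in sham libraries of 2 months. It averaged 85.9% ± 0.946 in Ang II and 85.4% ± 2.27 in sham libraries of 4 months, and 68.9% ± 3.51 in Ang II and 70.9% ± 1.24 in sham libraries of 6 months. Per kilobase of exon, heavy V over heavy C was 0.181 to 0.478 in the earlier libraries and 0.992 to 1.58 at 6 months. The same ratio was 0.361 to 0.785 and 1 to 1.86 for kappa, and 0.244 to 0.756 and 0.977 to 1.57 for lambda. Both treatment groups of 6 months showed it, and the chromosome M share was high in the same 8 libraries. Time and any technical difference of those libraries cannot be told apart here. J segments, whose exons are 38 to 100 bases long, took at most 0.889% of the counts, and Ighj4 led the heavy J with 439 counts over all libraries.

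**Figure D4:**
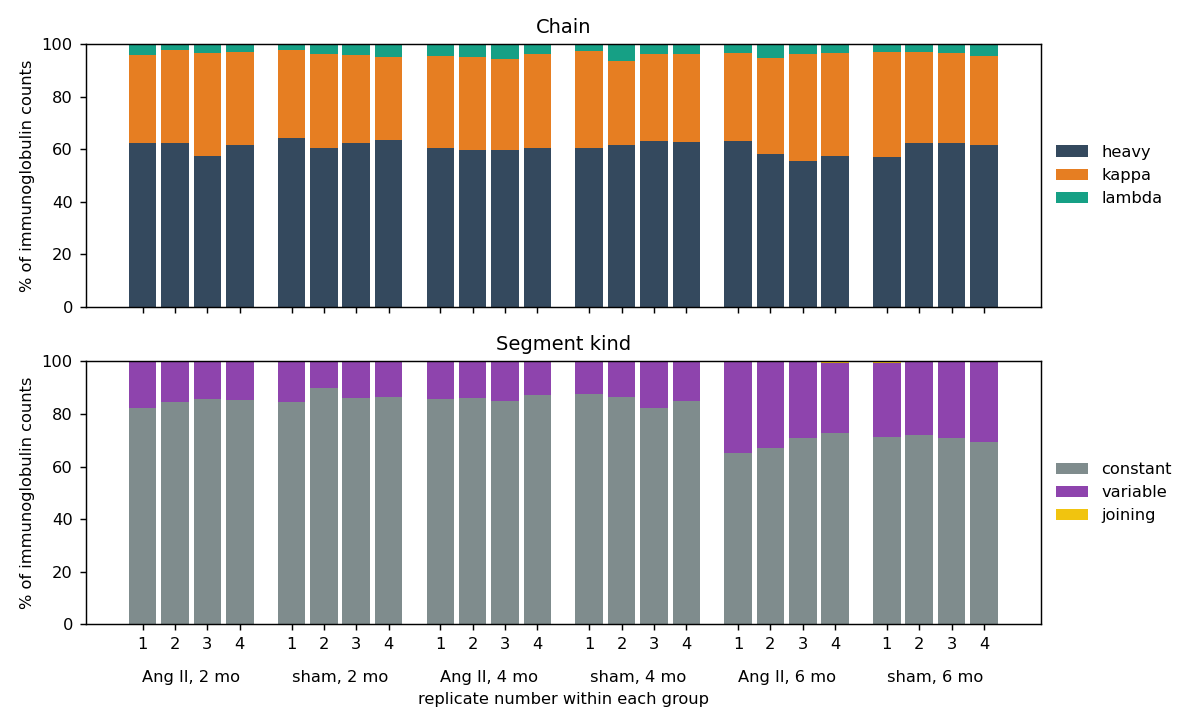
Share of immunoglobulin counts by chain (top) and by kind of segment (bottom) in each of the 24 libraries, as stacked percentages, with replicate numbers below the bars. Heavy genes hold 55.4% to 64.4% in every library, while the constant share is 82.2% or more at 2 and 4 months and 72.7% or less in the 8 libraries of 6 months.

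V segments were used unevenly, and the leading segment changed from library to library. Over 24 libraries 13 different heavy V segments and 11 different kappa segments came first. Ighv1 genes, the largest family with 41 members, took 27.1% to 68.6% of heavy V counts. The 5 heavy V members with the highest totals were Ighv1-53, Ighv1-26, Ighv11-2, Ighv3-6 and Ighv1-82, whose median shares of heavy V counts were 4.82%, 4.5%, 4.56%, 1.89% and 2.44%. Totals weight libraries by their immunoglobulin counts: Ang II replicate 3 at 6 months gave 897 counts of Ighv3-6, and by median share Ighv1-80 (3.14%) stood above Ighv3-6 and Ighv1-82. The 5 leading kappa members were Igkv14-126, Igkv3-2, Igkv1-110, Igkv4-55 and Igkv1-117, with median shares of kappa V counts of 7.07%, 3.93%, 4.28%, 2.52% and 3.87%. Of the 3 lambda V members, Iglv1 had a median of 63.3% of lambda V counts, Iglv2 26.8% and Iglv3 8.92%. Iglv1 and Iglv2 agree at 96.9% of bases.

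Some libraries were led by 1 heavy and 1 kappa segment at once. In sham replicate 1 at 4 months, Ighv1-53 took 41.8% of heavy V counts and Igkv4-55 33% of kappa V counts. Their medians over all libraries were 4.82% and 2.52%. The same segments also led sham replicate 2 at 4 months, at 19.6% and 25.7%. In Ang II replicate 3 at 6 months, Ighv3-6 took 26.1% and Igkv17-127 took 24.2%. Ang II replicate 1 at 2 months was led by Ighv1-64 at 19.2% and Igkv3-2 at 22.5%, and Ang II replicate 1 at 4 months by Ighv5-4 at 13.8% and Igkv8-21 at 15.2%. Sham replicate 1 at 4 months was also the library with the highest immunoglobulin sum of its time, 2764 CPM.

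The effective number of heavy V segments, the inverse of the summed squared shares, ran from 5.34 in that sham library to 35.5 in Ang II replicate 1 at 6 months. The medians were 18.3 in Ang II and 19.6 in sham libraries of 2 months, 23.8 in Ang II and 15.8 in sham libraries of 4 months, and 22.7 in Ang II and 29.2 in sham libraries of 6 months, with overlap each time. For kappa they were 22.4 in Ang II and 19.6 in sham libraries of 2 months, 25.7 in Ang II and 17.4 in sham libraries of 4 months, and 22.8 in Ang II and 19.7 in sham libraries of 6 months. Thinned to 144 heavy V counts, the smallest number in any library, libraries held on average between 28.5 and 49 of the 82 heavy V segments. Before thinning they held between 34 and 82.

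Another regularity among V segments lay in which heavy and kappa segments varied together. Of all 6232 heavy and kappa pairs, Ighv11-2 with Igkv14-126, the phosphatidylcholine pair whose sequences are shown above, had the highest rank correlation of within-chain shares when the lower of the values for the earlier and the 6-month libraries was taken. Next came Ighv4-1 with Igkv9-124, with rho of 0.78 in the earlier libraries and 0.93 at 6 months. Ighv11-2 took 1.15% to 22.7% of heavy V counts and Igkv14-126 took 1.97% to 27.2% of kappa V counts. Both were highest in sham replicate 1 at 6 months (22.7% and 27.2%), followed by sham replicate 1 at 2 months (16.6% and 21.9%) and sham replicate 4 at 6 months (14.5% and 17.7%). Both were lowest in Ang II replicate 1 at 2 months, at 1.15% and 1.97%. The segments lie on different chromosomes and share no counts.

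Over the 16 earlier libraries the shares of this pair gave r = 0.93 (permutation p = 1e-05, the smallest they can give, adjusted over 6232 pairs 0.0623) and rho = 0.86 (permutation p = 9e-05, adjusted 0.187). Over the 8 libraries of 6 months they gave r = 0.99 (exact permutation p = 0.000298, adjusted 0.278) and rho = 0.88 (exact permutation p = 0.00724, adjusted 0.674). None of the 6232 pairs passed after adjustment in either set, but the number of permutations limits this count. In the earlier libraries a pair alone at the smallest permutation p, 1e-05, adjusts to 0.0623 and could not pass. Several pairs at that p could have passed. For rho the permutation p of this pair, 9e-05, lay above that limit. With 8 libraries at 6 months the number of permutations also limits how small p can be. Without the 2 libraries farthest from the median Ighv11-2 share, r was 0.80 and 0.90. By rho the pair ranked 2 of 6232 in the earlier libraries and 34 at 6 months, where the median over pairs was 0.08 and 0.05, and in each set Igkv14-126 ranked first among the 76 kappa partners of Ighv11-2. By r the pair ranked 10 in the earlier libraries and 1 at 6 months. The pair was picked out with these values and its known biology in view.

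The second phosphatidylcholine pair, Ighv12-3 with Igkv4-91, followed this in the earlier libraries only. There r was 0.88 (permutation p = 0.00013, adjusted over 6232 pairs 0.27) and rho 0.76 (permutation p = 0.001, adjusted 0.29), with r = 0.84 without 2 libraries, and Igkv4-91 again ranked first of 76 partners. Both shares were highest in sham replicate 4 at 4 months, at 8.66% and 8.47%. Ighv12-3 had 101 counts in that library and between 1 and 18 in every other earlier library. Its shares there therefore rest on few counts. At 6 months r was -0.07 (exact permutation p = 0.862, adjusted 0.993) and rho 0.02 (exact permutation p = 0.977, adjusted 0.998), with r = 0.40 without 2. The difference between the sets was not tested. Ighv7-1 and Igkv7-33, a mouse pair known from antibodies to phosphorylcholine, gave r = -0.24 (permutation p = 0.384, adjusted 0.939) and rho = -0.29 (permutation p = 0.277, adjusted 0.857), with r = -0.22 without 2, in the earlier libraries. At 6 months they gave r = 0.32 (exact permutation p = 0.43, adjusted 0.945) and rho = 0.44 (exact permutation p = 0.273, adjusted 0.894), with r = 0.20 without 2. Igkv7-33 never exceeded 0.607% of kappa V counts.

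**Figure D5:**
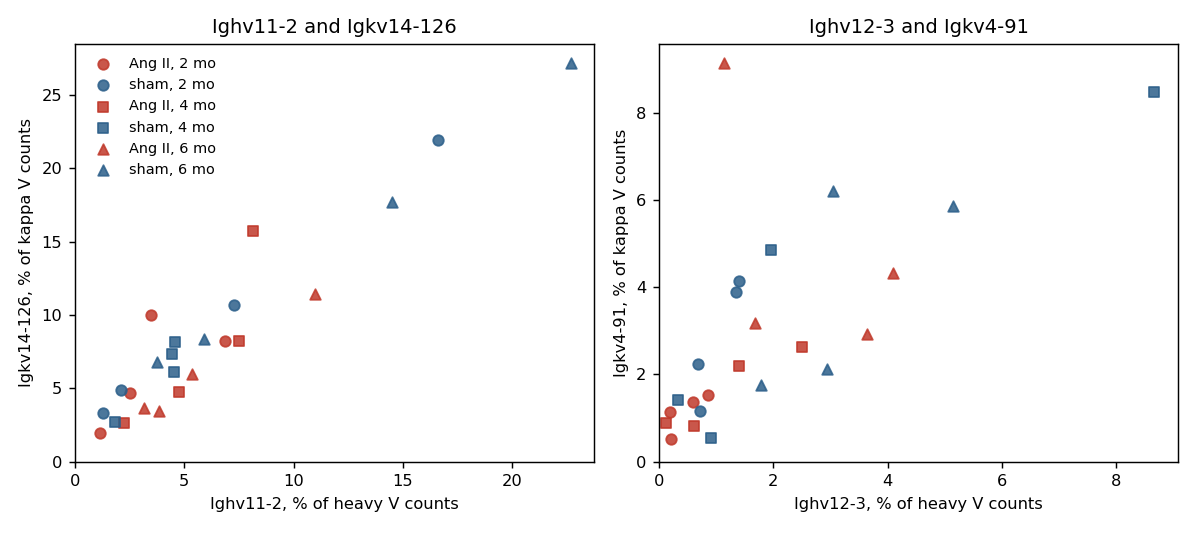
Share of kappa V counts (vertical axis, %) against share of heavy V counts (horizontal axis, %) for Ighv11-2 with Igkv14-126 (left) and Ighv12-3 with Igkv4-91 (right). Each point is a library, coloured by treatment and shaped by time; on the left the points follow a line up to 22.7% and 27.2%, and on the right Ang II replicate 1 at 6 months lies off it at 1.13% and 9.14%.

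Levels of the Ighv11-2 and Igkv14-126 pair were also compared between treatments. Ighv11-2 differed by 1.51 (SE 0.874, edgeR adjusted p = 0.645) at 2 months, 0.38 (SE 0.528, edgeR adjusted p = 0.736) at 4 months and -0.97 (SE 0.397, edgeR adjusted p = 0.935) at 6 months, on the log2 scale of CPM. Igkv14-126 differed by 1.32 (SE 0.689, edgeR adjusted p = 0.578), 0.00 (SE 0.585, edgeR adjusted p = 0.997) and -1.29 (SE 0.444, edgeR adjusted p = 0.922). None passed the threshold.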

How the data were processed

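RNA-seq was run on 24 aortic homogenates, 4 Ang II and 4 sham at each of 3 times. Total RNA was isolated with a column kit and libraries were built with a SMARTER mRNA kit, per the labels' protocols. Per the submitters' processing notes, the tools were STAR, featureCounts, cutadapt, FastQC and DESeq2, on mm10. No version is named there, and the strand setting and the treatment of reads shared by near-copies are likewise not given. The authors deposited whole-number counts per gene for 24 libraries, all matched to a sample by name, and comparison tables with a log2 fold change, an adjusted p-value and a fold (ratio) per gene. The depth was 19.16 to 58.68 per library, in units of 1e6 counts, and intervals cover counting error only.

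The main tool was edgeR 4.0.16 in R 4.3.3: filterByExpr (minimum count 10, total 15), TMM, the quasi-likelihood F test, two-sided, and Benjamini-Hochberg adjustment at 0.05 over all genes tested. Each time was fitted alone on 8 libraries. The average effect and the interaction used 24 libraries, and 4 against 2 months used 16. Alternatives used DESeq2 1.42.0, limma 3.58.1 (voom), other filters, scalings and member thresholds, and each library left out. The fits were tested on simulated data. Levels are CPM after TMM over 24 libraries. Correlations across libraries used 100000 permutations, or all permutations for 8 libraries. Each pooled the groups of its set, so group differences enter them, also for V pairs. Shares and sums carry no test. Tables were made in Python 3.11.15 with pandas 2.3.3, and alignments with Biopython 1.88.

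Named were the constant genes, the 5 V segments of each locus with the highest totals, the leading V segment of any library, called members and fixed marker genes, of which some are not reported here. Members outside that rule, such as Igkv4-63, Igkv3-10, Igkv4-91, Ighv1-61 and Igkv7-33, were named after their values or known pairing were seen. The members, lists and tests were chosen with earlier results of these data known.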

Additional observations from a re-analysis of the deposited data

Results flagged for a closer look

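A sample was singled out where its gap to the nearest other of its 4 libraries was a large part of the group's range (Dixon's criterion for 4 values). Of 132 groups examined, 21 met it, and chance gives about 1 in 20 for normal, independent values. CPM values are skewed and the measures share libraries, so no excess over chance is read from this count. Sham replicate 2 at 6 months stood apart in 6 measures, with 2973 CPM of summed immunoglobulin, 1176 CPM of Ighm, 188 CPM of Ighg2b, 49.8 CPM of Ighg2c, 40.8 CPM of Ighg1 and 27.5 CPM of Iglc1. Ang II replicate 4 stood apart at the same time with 1542 CPM of summed immunoglobulin. That value rests on the TMM scaling, since its 20929 immunoglobulin counts were the fewest of its group. Sham replicate 2 at 2 months stood apart with 46.5 CPM of Ighd, 10.4 CPM of Ighg3 and 15.8 CPM of Ighg1.

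Ighg1 was set by single libraries in other groups too, at 40.9 CPM in Ang II replicate 2 at 2 months, 82.1 CPM in Ang II replicate 3 at 4 months and 38 CPM in sham replicate 1 at 4 months. Igha was high in replicate 1 of both groups at 4 months, at 73 CPM in the Ang II and 57.3 CPM in the sham library. Iglc1 reached 37.4 CPM in Ang II replicate 3 at 4 months. Among V segments, Igkv14-126 was at 12.5 CPM in Ang II replicate 2 at 4 months, Ighv12-3 at 3.4 CPM in sham replicate 4 at 4 months and Igkv3-10 at 7.86 CPM in Ang II replicate 2 at 2 months. The heavy-chain share was low in Ang II replicate 3 at 2 months (57.5%) and in sham replicate 1 at 6 months (56.9%).

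The effect of Ang II on Ighv1-52 differed between times by the interaction test (edgeR adjusted p = 0.0453). Its log2 fold change was 4.57 at 2 months, 1.22 at 4 months and -1.57 at 6 months.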

How the results depend on the processing

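The number of members called depended on the tool. At 2 months edgeR called 1, DESeq2 12, limma voom 6, edgeR without the low-count filter 3, and edgeR with a library left out 0 to 3. DESeq2 called 1 member at 6 months, 3 for the average effect, 7 for the interaction and 2 between 4 and 2 months, where edgeR called 0, 0, 1 and 0. DESeq2 gave Ighv1-52 no adjusted p at 2 months. Over all genes at 2 months edgeR called 297, DESeq2 727, voom 629, and edgeR with a library left out 78 to 255. The count over all genes at 2 months without the low-count filter is not given here. At 4 months edgeR called 114, DESeq2 993, voom 602, and edgeR 40 without the filter, 68 with a mean count of at least 5, 214 without chromosome M and 0 to 674 with a library left out. DESeq2 called 63 genes at 6 months, 61 for the average, 543 for the interaction and 839 between 4 and 2 months.

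With the replicate number as a block, 0 members passed at 2 months (Ighv1-52 4.61, edgeR adjusted p = 0.0576) and 0 in the interaction, and 0 genes passed at 4 months and between 4 and 2 months. Same-numbered libraries correlated between -0.27 and 0.53 after group means were removed, which does not settle whether the numbers pair the samples. The labels do not say how replicates were numbered. The block also turned Ighm at 4 months to 0.01.

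Some signs rested on single libraries. With a library left out, Ighg1 at 2 months ran from -0.67 to 5.88, Ighm from -0.52 to 0.41 at 4 months and from -0.73 to 0.25 at 6 months, and Igkc from -0.27 to 0.89 at 4 months and from -0.63 to 0.51 at 6 months. Voom gave Igkc at 4 months -0.18. For the summed level the log2 difference ran from 1.27 to 2.17 (2 months), from -0.18 to 0.65 (4 months) and from -0.33 to 0.39 (6 months). The causes of these shifts were not tested. The smallest library held 144 heavy V counts, which limits single V shares there.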
